A study of Mus musculus with 23 samples.

Results

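The 10 genes described here, of the insulin-like growth factor (IGF) axis, were measured in whole mouse embryos with and without Zfp57. They were chosen by name, as rows of the count tables, from the receptors, binding proteins and signalling genes of the pathway, and the imprinted genes Igf2 and Igf2r were kept apart from them. All 10 were found among the 26183 genes of the tables. Counts of RNA-seq reads, per gene and per parental allele, were available for 23 embryos at stage E13.5, each sequenced as 1 library. ZFP57 is a zinc finger protein needed to maintain DNA methylation at imprinted regions. The M+Z+ embryos had Zfp57 in the oocyte and in the embryo (6 female, 4 male), the M-Z+ embryos lacked it in the oocyte and had a functional paternal copy (3 female, 3 male), and the M-Z- embryos lacked both (4 female, 3 male). The mutant mothers were of the 129 strain and homozygous for the Zfp57 deletion, and the fathers were carriers on a DBA/2J background, so that a maternal allele is also a 129 allele and the parent of origin and the strain cannot be told apart. The titles give Zfp57-/+ to both M+Z+ and M-Z+ embryos. The study's text writes Zfp57+/- for M+Z+, while some of its figure captions write Zfp57+/+. Whether the M+Z+ embryos carried 1 or 2 functional copies is thus not settled here. M+Z+ embryos had other mothers than the mutants, so the mother's genotype and the litter cannot be told apart in comparisons with M+Z+.

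The IGF axis controls how much an embryo and its placenta grow. The ligands IGF1 and IGF2 bind the IGF1 receptor and, less tightly, the insulin receptor, which signal through docking proteins such as IRS1 to the PI3K-AKT and MAP kinase pathways. Binding proteins of the IGFBP family hold the ligands outside cells and limit or prolong their action, and the IGF2BP proteins are RNA-binding proteins that bind Igf2 mRNA among many others. Because these embryos are whole, fewer cells of a type and less RNA per cell cannot be told apart.

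Libraries held 15.2 to 24.1 M counts (M for mega; median 17.4 M), and 2.46 to 3.94 M reads per embryo were assigned to an allele. Zfp57 itself, the deleted gene, stood at 52.7 to 99.1 CPM (the count over the library total in M) in the female M+Z+, 67.0 to 78.6 in the female M-Z+ and 31.9 to 34.0 CPM in the female M-Z- embryos. In males it stood at 68.0 to 88.8, 66.6 to 74.0 and 25.5 to 35.3 CPM in the same order, so M-Z- embryos lay below all others in both sexes without reaching 0. The count covers the whole gene, so this level separates the groups and does not check the deletion itself. One library stood apart, male M-Z- replicate 2, and many, but not all, of the results that may rest on it are given with and without it. Its Slc2a1, which encodes a glucose transporter, stood at 679.8 CPM against 134 to 180 CPM in the other 22 embryos, and its Vegfa, a vessel growth factor, at 431 against 79.9 to 141 CPM. Markers of hepatoblasts, the liver progenitors, had a lower median sum in M-Z- than in M+Z+ embryos of each sex, with overlap in females and no test run. Their summed level was 3294 to 7069 CPM in female M+Z+ and 2479 to 4061 CPM in female M-Z- embryos, and 4618 to 6679 against 1707 to 4441 CPM in the males, with all 8 markers of the list detected. Female M-Z+ embryos reached about as low, at 2639 to 4546 CPM, and male M-Z+ embryos did not, at 4468 to 5592 CPM. Summed erythroid markers (6 of 8 symbols in the tables) were 10128 to 15163 and 5229 to 11495 CPM in the same female groups, and 12895 to 15280 and 9687 to 13831 CPM in the males. The part of these cell types in the differences below was not tested.

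Per length, the members were spread over more than an order of magnitude. In TPM (a scale like CPM that first divides by exon length), Igfbp4 was highest in the 10 M+Z+ embryos at 507 ± 17.7 (SD), followed by Igfbp5 at 440.0 ± 44.8, and their ranges overlapped. Igfbp2 stood at 226 ± 18.1 TPM and Igfbp3 at 155 ± 7.60 TPM, each apart from its neighbours in the order. Igf2bp3 at 61.5 ± 5.62 and Igf1 at 56.6 ± 4.09 TPM overlapped. Below them, Igf2bp1 at 39.0 ± 7.34 and Igf1r at 35.7 ± 5.92 TPM overlapped with each other, as did Insr at 20.8 ± 2.76 and Irs1 at 20.7 ± 2.72 TPM. The binding proteins were thus the most abundant transcripts of the group per length. Each member had at least 1038 counts in each embryo, where counting error is 0.62% to 2.85% of the mean. The SD between embryos of a group was under 1.5 times the counting error in 6 of the 60 pairs of member and group, such as Irs1 in male M+Z+ (2.62% against 2.57%) and Igfbp3 in male M-Z+ (1.24% against 1.90%), and larger in the others.

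**Figure D1:**
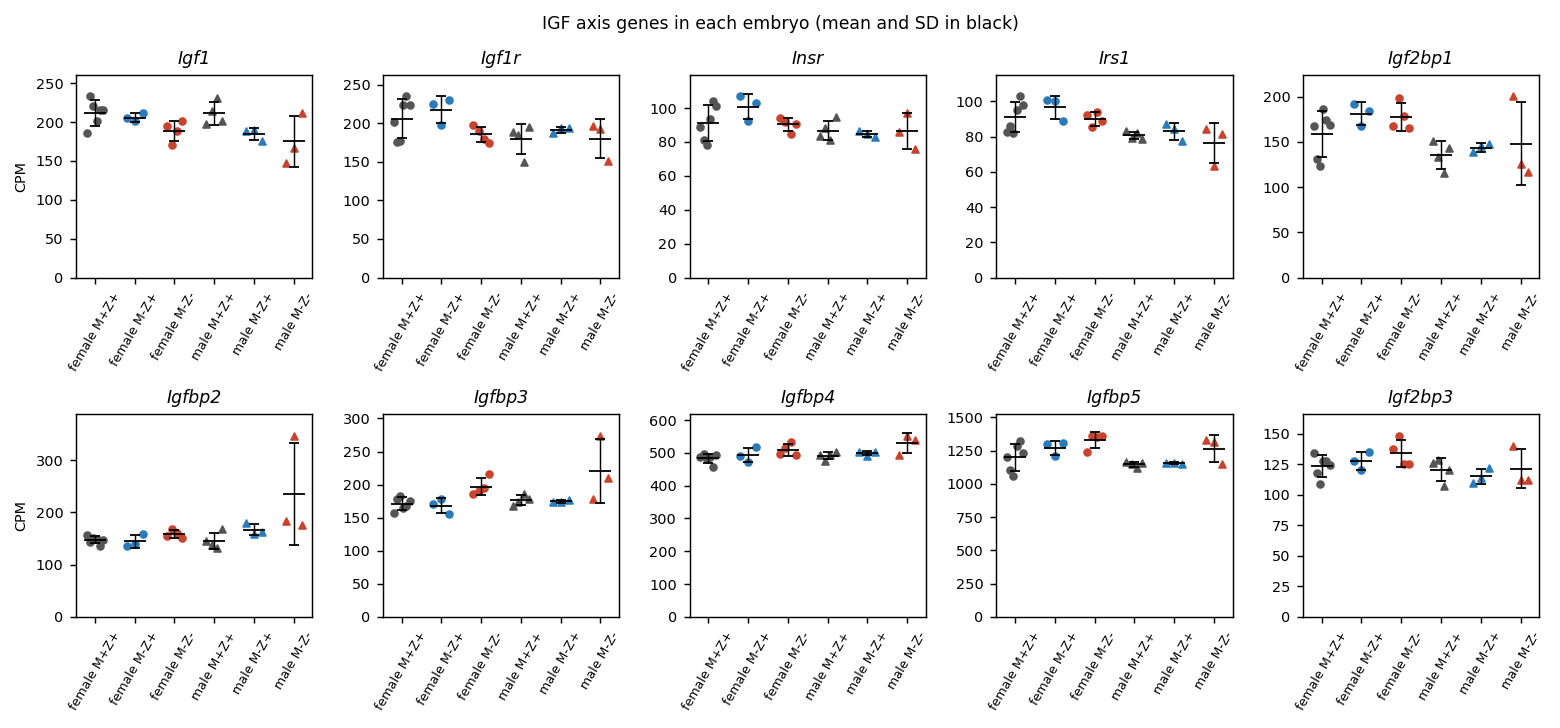
Level of each of the 10 genes in each embryo in CPM (vertical axis, from 0) by sex and genotype (horizontal axis); circles are females, triangles males, and black bars the mean and SD. The points of the 6 groups lie close together for most genes, and 1 male M-Z- embryo stands apart for Igfbp2 at 347 CPM and for Igfbp3 at 274 CPM.

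Embryos without any Zfp57 (M-Z-) were set against M+Z+ to ask how the growth axis outside the imprinted genes differed after loss of both maternal and zygotic Zfp57. Calls required an adjusted p under 0.05 (edgeR's quasi-likelihood test, adjusted over all tested genes) and a difference of 0.5 or more on the log2 scale, that is 41.4% higher or 29.3% lower. None of the 10 members was called in females, in males or with both sexes in 1 fit. The share of all tested genes called was 0.563% in females, 0.39% in males and 2.19% in both sexes, so a count of 0 among 10 genes lies within what these shares give. At an unadjusted p below 0.05 the members numbered 3 in females, 4 in males and 5 in both sexes, where 15.5%, 17% and 25.4% of all genes did, and DESeq2 with the same size rule called 0 in each. Across both sexes, the members' log2 fold changes ran from -0.20 to 0.38 with a median of 0.10, against -0.00 over all tested genes. The minimum size weighed on these counts, since 94.9% of all tested genes differed by less than 0.5.

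Without the minimum size, 4 members passed the adjusted p of edgeR in the fit of both sexes. Igfbp2, Igfbp3 and Igfbp5 were higher in M-Z- embryos, where 5.43% of all genes passed in that direction. Igf1 was lower, where 4.26% passed. DESeq2 gave these 4 and Igfbp4. In this fit Igfbp3 differed by 0.27 ± 0.07 (SE) on the log2 scale (adjusted p = 0.0101 by edgeR), which is 20.8% higher. Igfbp2 differed by 0.38 ± 0.11 (adjusted p = 0.0347 by edgeR), Igfbp5 by 0.16 ± 0.05 (adjusted p = 0.0264 by edgeR) and Igf1 by -0.20 ± 0.06 (adjusted p = 0.0308 by edgeR), which is 30.2% and 11.8% higher and 12.6% lower. With the replicate number as a block in this fit, Igfbp3 and Igfbp5 passed, and Igfbp2 and Igf1 did not. The replicate numbers did not pair the embryos, so this block stands for no known pairing. No conclusion is drawn, here or below, from a pass or call that ends with it.

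**Figure D2:**
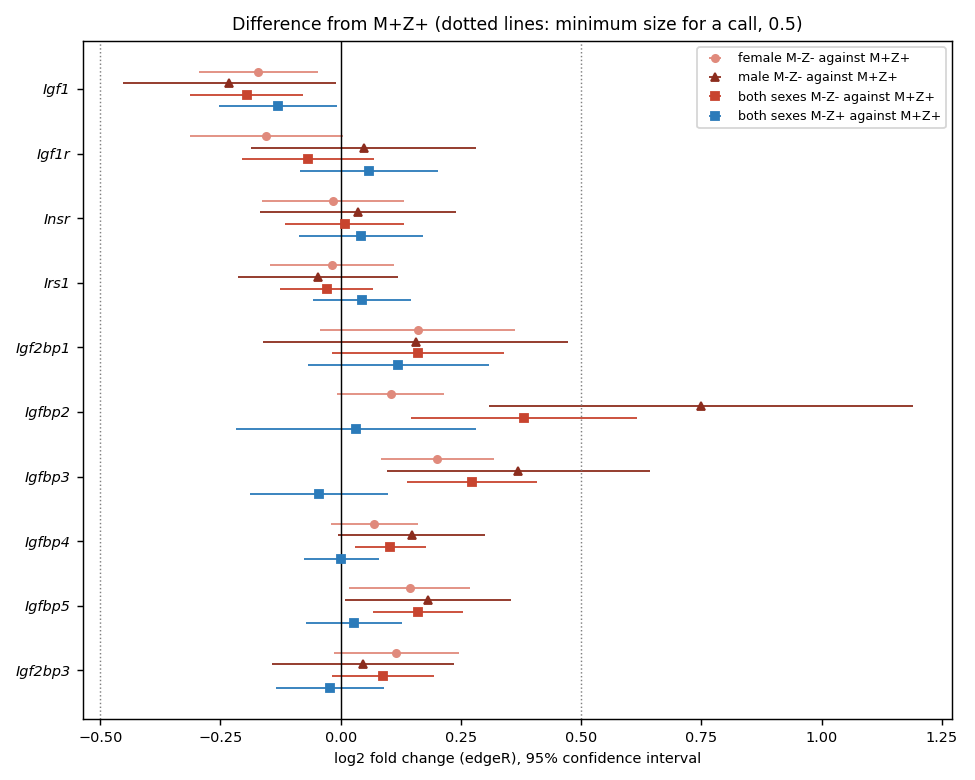
Log2 fold change of each gene against M+Z+ (horizontal axis) with its 95% confidence interval, for M-Z- in females, in males and in both sexes, and for M-Z+ in both sexes; dotted lines mark the minimum size for a call, 0.5. The intervals of Igfbp2, Igfbp3, Igfbp4 and Igfbp5 in both sexes lie above 0 for M-Z- and that of Igf1 below 0 for M-Z- and M-Z+, and the male Igfbp2 interval is the widest, from 0.31 to 1.19.

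Igfbp3 encodes the main IGF carrier of the circulation after birth. It lies on chromosome 11 (mm9, 7106096 to 7113926, minus strand). Its level was 157 to 182 CPM (median 171) in the 6 female M+Z+ embryos, 171, 178 and 156 CPM in the female M-Z+ embryos, and 186, 190.2, 195 and 215 CPM in the female M-Z- embryos. Each female M-Z- embryo was above each female M+Z+ embryo, a separation in this direction that 2.24% of all genes showed. The female difference was 0.20 ± 0.06 on the log2 scale (adjusted p = 0.0925 by edgeR), with a 95% confidence interval of 0.08 to 0.32, and it was not called. By DESeq2 without the minimum size, Igfbp3 was the 1 member with an adjusted p below 0.05 in females. In males Igfbp3 stood at 168, 174, 186 and 179 CPM in M+Z+, at 174, 173 and 177 in M-Z+ and at 178, 274 and 210.0 CPM in M-Z- embryos. The highest male value was that of M-Z- replicate 2, and the lowest M-Z- value lay inside the M+Z+ range. The male difference was 0.37 ± 0.13 (adjusted p = 0.184 by edgeR), and 0.13 ± 0.07 without that embryo (adjusted p = 0.475 by edgeR).

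Against M-Z+ embryos, Igfbp3 was higher in M-Z- by 0.32 ± 0.08 on the log2 scale in both sexes (adjusted p = 0.0266 by edgeR), the one member of 10 that passed the adjusted p in that comparison without a minimum size, where 1.59% of all genes did. Its levels did not overlap between these groups in females or in males, which 10.2% and 13% of all genes showed in 1 direction or the other. Without male M-Z- replicate 2 the difference from M-Z+ was 0.22 ± 0.05 (adjusted p = 0.0183 by edgeR). It passed in 17 of the 23 fits that left out 1 embryo, with an adjusted p of 0.051 to 0.0728 without female M-Z+ replicate 1 or 3, female M-Z- replicate 4 or any of the 3 male M-Z+ embryos, and of 0.0881 with the replicate block. Between M-Z+ and M+Z+ it differed by -0.05 ± 0.07 in both sexes. Leaving out male M-Z- replicate 2 lowered its difference between M-Z- and M+Z+ to 0.18 ± 0.04 with an adjusted p of 0.0103 by edgeR. With each of the 23 embryos left out in turn, the value ran from 0.18 to 0.31 and the adjusted p from 0.00363 to 0.0221.

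Igfbp2 encodes a binding protein that is abundant in fetal tissues and prefers IGF2 as its ligand. It lies on chromosome 1 (mm9, 72871054 to 72899045, plus strand). In males it stood at 145, 138, 133 and 167 CPM in M+Z+, at 179, 159 and 162 CPM in M-Z+ and at 183, 347 and 176 CPM in M-Z- embryos. Each male M-Z- embryo was above each male M+Z+ embryo, a separation that 4.41% of all genes showed in this direction, and replicate 2 stood at 2.38 times the male M+Z+ mean. The male difference was 0.75 ± 0.20 on the log2 scale (adjusted p = 0.126 by edgeR), the largest of the members and above the minimum size. With M-Z- replicate 2 left out it was 0.30 ± 0.08 (adjusted p = 0.174 by edgeR). Leaving out M-Z- replicate 3 instead gave 0.94 with an adjusted p of 0.0118 by edgeR, a call, in a fit that called 899 genes in all.

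In females Igfbp2 was 136 to 156 CPM (median 149) in M+Z+, 135, 140.4 and 159 CPM in M-Z+ and 156, 168, 160.1 and 152 CPM in M-Z- embryos, and the groups overlapped. The female difference was 0.10 ± 0.05 on the log2 scale (adjusted p = 0.357 by edgeR). The difference between the sexes in this effect was 0.63 ± 0.20 (male minus female, adjusted p = 0.725 by edgeR), so an effect particular to males was not shown. Leaving out male M-Z- replicate 2 lowered it to 0.19 ± 0.10. In both sexes without male M-Z- replicate 2, Igfbp2 differed by 0.18 ± 0.05 (adjusted p = 0.027 by edgeR). With each of the 23 embryos left out in turn it passed in 20, and its adjusted p was 0.0645 to 0.0705 without male M+Z+ replicate 1, 2 or 3. The replicate block also ended the pass of Igfbp2 in both sexes.

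The starts of Igfbp2 and Igfbp3, the binding protein genes with the largest differences in males and in the fit of both sexes, are shown. The embryo that was highest for both was also highest for Slc2a1, Vegfa, Stc2 and Car9, genes known to respond to low oxygen. Capitals mark the letters ACGTG or GCGTG on either strand, the core of the hypoxia response element, a motif chosen after these values were seen; in the Igfbp2 sequence 2 such matches overlap in a run of 6 letters. The sequences are from RefSeq (GRCm38.p6), with 250 bases before and 50 after the start of the gene, at chr1:72824230-72824529 (plus strand) for Igfbp2 and chr11:7213874-7214173 (minus strand) for Igfbp3.
Igfbp2: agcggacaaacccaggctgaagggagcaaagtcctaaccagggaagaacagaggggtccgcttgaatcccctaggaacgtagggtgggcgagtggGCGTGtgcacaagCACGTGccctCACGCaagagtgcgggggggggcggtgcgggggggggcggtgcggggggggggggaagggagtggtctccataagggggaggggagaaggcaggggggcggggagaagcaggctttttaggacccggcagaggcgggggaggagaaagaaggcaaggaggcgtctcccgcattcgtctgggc
Igfbp3: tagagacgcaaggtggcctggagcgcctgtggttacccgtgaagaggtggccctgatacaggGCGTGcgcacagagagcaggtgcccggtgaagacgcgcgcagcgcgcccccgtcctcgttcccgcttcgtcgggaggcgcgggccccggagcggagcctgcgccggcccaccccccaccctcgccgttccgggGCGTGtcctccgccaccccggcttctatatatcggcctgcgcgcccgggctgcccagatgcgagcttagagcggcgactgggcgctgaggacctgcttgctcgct
The Igfbp2 window held 4 matches and the Igfbp3 window 2, and a further start listed for Igfbp2 held 1. Igf2bp3 also held 4, Igf1r and Irs1 3 each, Igf1 1 and Igfbp4 and Igfbp5 0. The levels of Igf2bp3, Igf1r and Irs1 in male M-Z- replicate 2 were 0.93, 1.07 and 0.786 times the male M+Z+ mean. Of all 32851 promoters in the table, 43.8% held at least 1, as did 6 of the 8 members with an entry, so a match is common and describes the sequence alone. Whether low oxygen or these matches had a part in the levels of male M-Z- replicate 2 was not tested. Insr and Igf2bp1 had no entry.

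In male M-Z- replicate 2, Stc2, which encodes an inhibitor of the proteases that cut binding proteins, stood at 29.0 CPM against 4.57 to 8.79 CPM in the other 22 embryos, and Car9, a carbonic anhydrase, at 7.40 against 0.184 to 2.94 CPM. Irs1 was lowest in this embryo among all 23, at 63.5 CPM against 77.8 to 103. Its Igf1r, Insr, Igfbp4, Igfbp5, Igf2bp1 and Igf2bp3 levels were 0.927 to 1.15 times the male M+Z+ means, against 2.38 and 1.55 times for Igfbp2 and Igfbp3. Igfbp4 was also highest in it among all 23, at 553 CPM against 457 to 540 CPM. Igf1 in it was 0.791 times that mean. Car9 was not high in this embryo alone. It was called higher in M-Z- than in M+Z+ females, by 1.53 ± 0.35 on the log2 scale (adjusted p = 0.0385 by edgeR). In both sexes Car9 was called at 1.98 ± 0.31 (adjusted p = 0.000234 by edgeR) and Vegfa at 0.74 ± 0.20 (adjusted p = 0.02 by edgeR). Slc2a1 was not called there (0.58 ± 0.22, adjusted p = 0.0949 by edgeR). In females alone Vegfa differed by 0.26 ± 0.08 (adjusted p = 0.107 by edgeR) and was not called. For the fit of both sexes, Car9, Vegfa and Slc2a1 are not given without male M-Z- replicate 2. How far the Vegfa call rests on that embryo was thus not shown. The share of all genes called was 0.563% in females and 2.19% in both sexes. A cause of the pattern in male M-Z- replicate 2 was not tested.

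**Figure D3:**
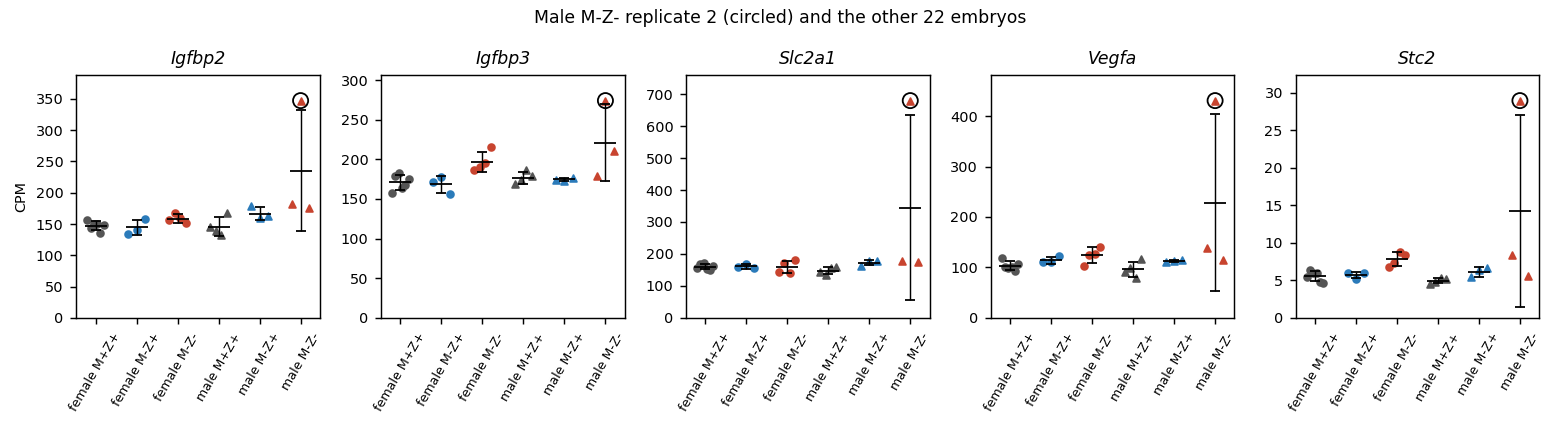
Levels in CPM (vertical axis, from 0) of Igfbp2, Igfbp3, Slc2a1, Vegfa and Stc2 in each embryo by sex and genotype, with mean and SD in black and male M-Z- replicate 2 circled. The circled embryo is the highest for each of the 5 genes, at 347, 274, 679.8, 431 and 29.0 CPM.

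Igf1 encodes the ligand that, with IGF2, drives growth of the fetus. It lies on chromosome 10 (mm9, 87321010 to 87399792, plus strand). Its level was 186 to 233 CPM (median 216) in female M+Z+, 205, 201 and 212 CPM in female M-Z+ and 195, 170.3, 188 and 201 CPM in female M-Z- embryos. The males had 198, 214, 231 and 202 CPM in M+Z+, 189, 190.2 and 176 CPM in M-Z+ and 148, 167 and 211 CPM in M-Z- embryos. The M-Z- embryos overlapped with M+Z+ in both sexes, and the male M-Z+ embryos lay below each male M+Z+ embryo, which 5.06% of all genes did. The difference of M-Z- from M+Z+ was -0.17 ± 0.06 in females (adjusted p = 0.164 by edgeR) and -0.23 ± 0.10 in males (adjusted p = 0.274 by edgeR) on the log2 scale. That of M-Z+ was -0.13 ± 0.06 in both sexes (adjusted p = 0.337 by edgeR), and M-Z- and M-Z+ differed by -0.06 ± 0.06 (adjusted p = 0.692 by edgeR). With each of the 23 embryos left out in turn, the M-Z- value of both sexes ran from -0.24 to -0.15, and it passed in 17 fits. Its adjusted p by edgeR lay between 0.0542 and 0.0757 without female M-Z- replicate 2 or 3, female M+Z+ replicate 2, male M+Z+ replicate 2 or 3 or male M-Z- replicate 1. The pass of Igf1 also ended with the replicate block.

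Igfbp5 and Igfbp4, the most abundant binding protein transcripts, differed by less than Igfbp2 and Igfbp3 in the fit of both sexes. In females Igfbp5 (0.14) differed by more than Igfbp2 (0.10). Igfbp5, which encodes a binding protein of muscle, bone and connective tissue, lies 5593 bases from Igfbp2 on chromosome 1 (mm9, 72904639 to 72921439, minus strand), and the 2 genes point at each other. It stood at 1060.1 to 1325 CPM (median 1215) in female M+Z+, 1298, 1209 and 1306 CPM in female M-Z+ and 1241, 1360.1, 1349 and 1363 CPM in female M-Z- embryos. The males had 1161, 1152, 1119 and 1157 CPM in M+Z+, 1160.5, 1159.5 and 1146 CPM in M-Z+ and 1328, 1318 and 1146 CPM in M-Z- embryos, so 2 of the 3 male M-Z- embryos were above the others. Its difference between M-Z- and M+Z+ was 0.14 ± 0.06 in females and 0.18 ± 0.08 in males on the log2 scale, neither called (adjusted p = 0.256 and 0.274 by edgeR), and the male value was 0.11 without M-Z- replicate 2. In both sexes its adjusted p by edgeR was 0.0504 without female M-Z- replicate 2, 0.067 and 0.0604 with male M-Z- replicates 1 and 2 left out in turn. Igfbp4, which encodes a binding protein that inhibits IGF action until it is cut, lies on chromosome 11 (mm9, 98902558 to 98913969, plus strand). It ranged from 457 to 553 CPM over all embryos, and differed by 0.10 ± 0.04 between M-Z- and M+Z+ in both sexes (adjusted p = 0.0654 by edgeR, 0.0275 by DESeq2). Its highest level was that of male M-Z- replicate 2, and its difference without that embryo is not given.

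With both sexes in 1 fit, the receptors and the docking protein were the members nearest to M+Z+. Igf1r, the receptor for both ligands (chromosome 7, mm9, 75097143 to 75378553, plus strand), stood at 176 to 235 CPM (median 212) in female M+Z+, 225, 198 and 230.3 CPM in female M-Z+ and 197, 190.3, 180.0 and 174 CPM in female M-Z- embryos. It was lower in M-Z- than in M-Z+ females by 0.22 ± 0.09 on the log2 scale (adjusted p = 0.466 by edgeR). Its levels did not overlap between these 2 groups, which 10.2% of all genes showed in 1 direction or the other. Its difference from M+Z+ in females was -0.15 ± 0.08 (adjusted p = 0.339 by edgeR), larger in size than those of Igfbp2, Igfbp4, Igfbp5 and Igf2bp3 there. In males it was 150.3 to 196 CPM over all 10 embryos, with a difference of 0.05 ± 0.11 between M-Z- and M+Z+ that was -0.05 ± 0.11 without M-Z- replicate 2. Insr, the insulin receptor (chromosome 8, mm9, 3150922 to 3279617, minus strand), differed by 0.01 in both sexes, with an interval of -0.12 to 0.13. Irs1 (chromosome 1, mm9, 82229680 to 82288014, minus strand) differed by -0.03, with an interval of -0.13 to 0.07. These intervals leave out differences of the minimum size for a call in either direction.

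Igf2bp1 had the highest median SD over the 6 groups among the members, 10.04% of the mean, next to 9.61% for Igf1r and 7.47% for Igf2bp3, while the largest SD within 1 group was that of Igfbp2 in male M-Z- embryos, at 41.2%. Igf2bp1 and Igf2bp3 encode RNA-binding proteins. Igf2bp1 (chromosome 11, mm9, 95818478 to 95867258, minus strand; its exons also overlap Mir3063 on the same strand) stood at 123 to 186 CPM (median 168) in female M+Z+, 192, 167 and 184 CPM in female M-Z+ and 167, 198, 179 and 165 CPM in female M-Z- embryos. The males had 151, 133, 116 and 144 CPM in M+Z+, 138, 145 and 148 CPM in M-Z+ and 200.3, 126 and 117 CPM in M-Z- embryos, so the 3 male M-Z- embryos spanned more than the range of the others. Its difference between M-Z- and M+Z+ was 0.16 ± 0.09 in both sexes (adjusted p = 0.254 by edgeR). Igf2bp3 (chromosome 6, mm9, 49035217 to 49164953, minus strand) ranged from 108 to 149 CPM over all embryos and differed by 0.09 ± 0.05 (adjusted p = 0.295 by edgeR).

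In M-Z+ embryos, which lacked only the maternal Zfp57, no member was called against M+Z+ in females (background 0.0593%), males (0.048%) or both sexes (0.0759%). In both sexes Igf1 was the one member at an unadjusted p below 0.05, as were 2315 of all 17139 genes, and DESeq2 called 0. Between M-Z- and M-Z+, 0 members were called (background 0.196% in females, 0.15% in males and 0.566% in both sexes), with 3, 3 and 4 at an unadjusted p below 0.05 by edgeR (8.64%, 9.5% and 15.1% of all genes) and 0 called by DESeq2.

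Male and female M+Z+ embryos were compared for a sex difference, called at a log2 size of at least 0.3. No member was called (background 0.0817%). Irs1 was lower in males by 0.17 ± 0.06 and Igf1r by 0.20 ± 0.09 on the log2 scale, the 2 members at an unadjusted p below 0.05 (4.92% of all genes), both with an adjusted p of 0.935 by edgeR, and DESeq2 called 0. The study's captions name the M+Z+ embryos of each sex in 2 series, whose meaning is not given. Female M+Z+ replicates 1 to 3 had Irs1 at 82.2 to 86.3 and Igf1r at 176 to 201 CPM. Replicates 4 to 6 had 94.9 to 102.9 and 223 to 235 CPM, and male M+Z+ embryos 78.8 to 83.2 and 150 to 195 CPM. The part of such differences within M+Z+ was not tested. The sex by genotype interaction asked whether the effect of the genotype differed between the sexes. No gene was called for M-Z- (0%) or for M-Z+ (0%) by edgeR or DESeq2, although 1107 and 625 genes (6.46% and 3.65%) had an unadjusted p below 0.05. Igfbp2 in M-Z- was the one member among them.

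Variation between embryos of the same group was shared among several members. After the mean of each of the 6 groups was subtracted from log2(CPM + 0.5), Igf2bp1 and Igf2bp3 followed Hmga2, a chromatin protein of growing embryonic tissue that, like both of them, is known as a target of let-7 miRNAs. Over the 23 embryos the Pearson r was 0.90 for Igf2bp1 and 0.87 for Igf2bp3, with Spearman rho of 0.92 and 0.88, and r of 0.87 and 0.88 without the 2 embryos farthest in Hmga2. Igf1r (r = 0.85) and Igfbp5 (r = 0.80) followed it too, as did Insr with r of 0.65 and rho of 0.51 (r of 0.47 without the 2 farthest). Igf1 ran the other way, with r of -0.74 and rho of -0.76, and Igfbp3 likewise with r of -0.52 and rho of -0.68 (r of -0.67 without male M-Z- replicate 2). Irs1, Igfbp2 and Igfbp4 had r of 0.19, 0.09 and -0.16. These are descriptions, given with no test because Hmga2 was picked after the values were seen, out of 65 relations computed, and the values of 1 embryo share a library.

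The embryos at the low end were female M+Z+ replicates 2 and 3, male M+Z+ replicate 3 and male M-Z- replicate 3, with Hmga2 at 181, 151, 168 and 175 CPM and Igf2bp1 at 131, 123, 116 and 117 CPM. With the summed hepatoblast markers, r was -0.82 for Igf1r, -0.78 for Igfbp5, -0.68 for Igf2bp1, -0.66 for Insr and 0.70 for Igf1, and the rho were -0.68, -0.69, -0.65, -0.54 and 0.64. The other members had r of -0.62 (Igf2bp3), -0.50 (Igfbp2), -0.15 (Igfbp4), 0.15 (Irs1) and 0.19 (Igfbp3, 0.56 without male M-Z- replicate 2). Without the 2 embryos farthest in the marker sum, r of the first 5 was -0.74, -0.66, -0.54, -0.49 and 0.58. Whether tissue makeup or developmental stage sets this pattern was not tested.

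**Figure D4:**
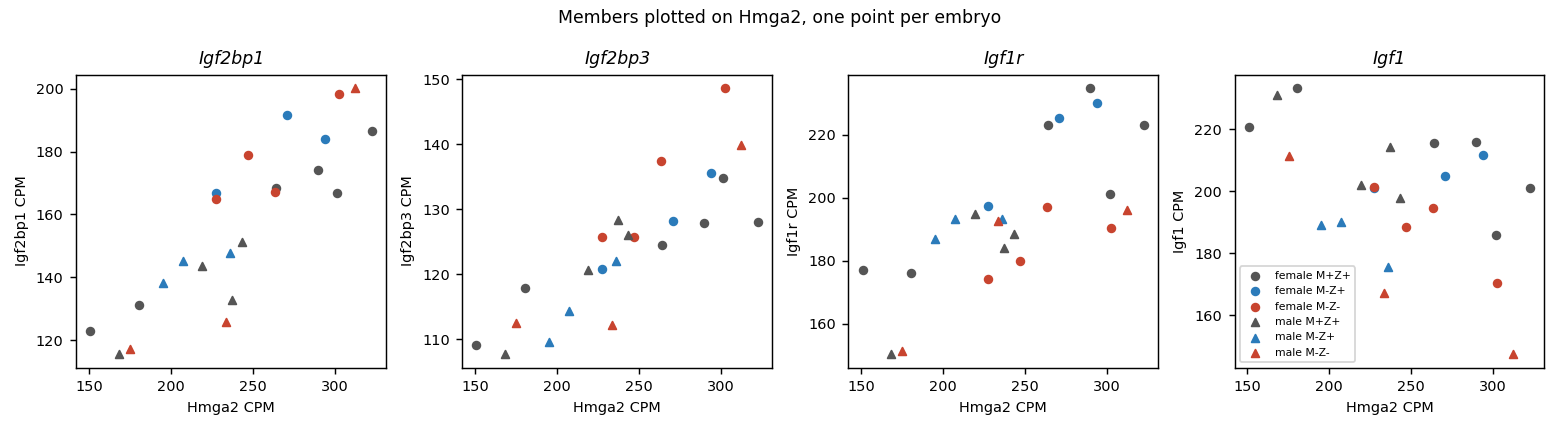
Levels in CPM of Igf2bp1, Igf2bp3, Igf1r and Igf1 (vertical axes, not from 0) against Hmga2 in CPM (horizontal axis), 1 point per embryo; colours are genotypes, circles females and triangles males. Igf2bp1 spans 116 to 200.3 CPM as Hmga2 spans 151 to 323 CPM, and Igf1 is lower in embryos with more Hmga2.

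The allelic tables asked whether the 2 parental copies of the members were equally expressed and whether the genotype moved the balance. The P-score is the paternal fraction of a gene's allelic reads in an embryo, less 0.5, so that 0 marks equal alleles, and it was computed above 10 reads. Enough reads for a test, 20 or more per embryo on average, were found for 6 members. Irs1 and Igfbp4 had 0 allele-assigned reads in each of the 23 embryos despite at least 1038 gene counts, and Igf1 (0 to 11 reads) and Igf2bp3 (1 to 16 reads) had too few, so nothing is known here of their balance.

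A call needed an adjusted p under 0.05 together with a P-score, or a shift of it, of 0.1 or more in either direction. In M+Z+ embryos no member met both, where 18.6% of all tested genes in females and 17.2% in males did. Of the 6 members, 3 passed the adjusted p and stood on 1 side of 0 in each of the 23 embryos, where 32.2% (female) and 27% (male) of all tested genes passed the adjusted p and 18.4% stood on 1 side of 0 throughout. Igfbp3 was higher from the maternal 129 allele, with a P-score of -0.08 ± 0.01 (SD, n = 6) in female and -0.09 ± 0.02 (n = 4) in male M+Z+ embryos (adjusted p = 5.78e-08 and 9.65e-08 by edgeR on allele counts), at 1274 to 2220 reads per embryo. Insr was higher from the paternal DBA allele, at 0.07 ± 0.03 in females and 0.09 ± 0.02 in males (adjusted p = 3.13e-05 and 2.55e-05 by edgeR), at 504 to 826 reads. Igf2bp1 was also higher from the paternal allele, at 0.06 ± 0.02 in females and 0.06 ± 0.03 in males (adjusted p = 8.08e-06 and 0.0002 by edgeR). Without male M+Z+ replicate 2 the male Insr value was 0.101, which met the size rule. Both alleles of each of the 3 thus gave reads, and whether the lean follows the parent or the strain cannot be told apart in this cross.

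No member was called for an allelic shift. The share of all tested genes called was 0.402% (female) and 2.54% (male) in M-Z- and 0.186% (female) and 0.171% (male) in M-Z+ embryos. At an unadjusted p below 0.05 by edgeR, the members were Igfbp5 in female M-Z- and M-Z+, Igfbp2 in male M-Z- and M-Z+ and Insr in male M-Z+ embryos, where 6.11% (female M-Z-), 6% (female M-Z+), 7.68% (male M-Z-) and 5.2% (male M-Z+) of all tested genes were. Male Igfbp2 had a P-score of 0.05 ± 0.03 (n = 4) in M+Z+, -0.05 ± 0.05 (n = 3) in M-Z+ and -0.06 ± 0.02 (n = 3) in M-Z- embryos. Each of the 6 mutant males was below each M+Z+ male, which 3.34% of all genes did in M-Z+ and 5.28% in M-Z-. The shift of -0.10 in M-Z- had an adjusted p of 0.0775 by edgeR and that of -0.10 in M-Z+ one of 0.733, and the exact two-sided permutation p of both was 0.0571, the smallest that 3 against 4 embryos allow. Without male M-Z+ replicate 1, the adjusted p of the M-Z- shift was 0.0493, a call. Leaving out male M-Z- replicate 2 gave a shift of -0.12 with an adjusted p of 0.138 by edgeR. In females the Igfbp2 P-scores ran from -0.09 to 0.06 in M+Z+ and overlapped with both mutant groups.

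Female Igfbp5 had a P-score of -0.01 ± 0.01 (n = 6) in M+Z+, 0.02 ± 0.01 (n = 3) in M-Z+ and 0.02 ± 0.01 (n = 4) in M-Z- embryos, at 1350 to 2415 reads per embryo. Each mutant female was above each M+Z+ female, which 1.37% of all genes did in M-Z+ and 0.546% in M-Z-. The shifts of 0.03 in both had exact two-sided permutation p of 0.0238 and 0.00952, unadjusted, and adjusted p of 0.725 and 0.326 by edgeR. These permutation p are the smallest that 3 and 4 embryos against 6 allow, so they restate the separation. Both shifts lie below the 0.1 that a call needs.

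The balance of Igfbp3 did not move with its level. Its P-score in M-Z- embryos was -0.08 ± 0.02 (n = 4) in females and -0.10 ± 0.01 (n = 3) in males, shifts of -0.00 in both sexes (adjusted p = 1 by edgeR). Maternal reads of Igfbp3, per M allele-assigned reads, averaged 370 ± 23.9 in female M-Z- against 300.4 ± 11.6 in female M+Z+ embryos, and paternal reads 266 ± 30.1 against 217 ± 12.4, log2 ratios of 0.30 and 0.29. In males the log2 ratios were 0.42 for the maternal and 0.39 for the paternal reads, and 0.19 and 0.17 without M-Z- replicate 2. The reads of both alleles of Igfbp3 were thus higher on average in M-Z- embryos of each sex, with and without that embryo. For male Igfbp2 the maternal reads averaged 57.0 ± 19.8 in M-Z- and 33.5 ± 2.7 in M+Z+ embryos, and the paternal reads 46.2 ± 20.3 and 40.4 ± 1.40, with exact two-sided permutation p of 0.0571 and 0.8 (n = 3 and 4). Without M-Z- replicate 2 the maternal mean was 45.7, still above M+Z+, and the paternal mean 34.8, below it, so the direction of the paternal difference rested on that embryo.

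**Figure D5:**
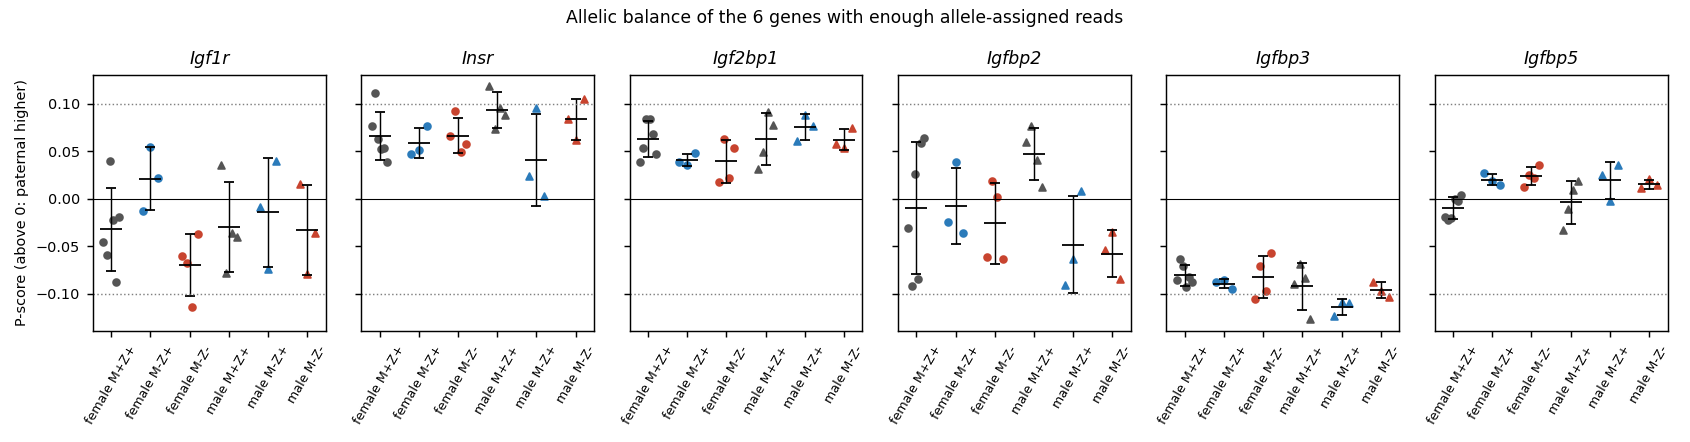
P-score (vertical axis; above 0 the paternal allele is higher, dotted lines at 0.1 mark the size a call needs) of 6 genes in each embryo by sex and genotype, with mean and SD in black. Igfbp3 lies below 0 in each of the 23 embryos, Insr and Igf2bp1 above 0, and male Igfbp2 is above 0 in each M+Z+ and below 0 in each M-Z- embryo.

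The rest of the pathway was read from 6 lists with 101 genes that are not members, of which 92 were tested. In both sexes, 1 was called higher in M-Z- than in M+Z+ and 0 lower, where 2.19% of all genes were called in either direction, and the median log2 fold change was 0.00, against -0.00 over all genes. In females 0 were called higher and 2 lower (0.563% of all genes), and in males 0 of either (0.39%). Without male M-Z- replicate 2, the fit of both sexes called 0 higher and 1 lower, which was Igf2r. The list of ligands, receptors and carriers (15 of 17 tested) had 1 female call, Igf2r, which encodes the imprinted receptor that clears IGF2. It stood at 440.0 to 482 CPM in female M+Z+ and 241 to 344 CPM in female M-Z- embryos, a difference of -0.61 ± 0.08 on the log2 scale (adjusted p = 0.000198 by edgeR). In males it stood at 424 to 497 CPM in M+Z+ and at 319, 394 and 348 CPM in M-Z- embryos, with no overlap, and differed by -0.31 ± 0.09 (adjusted p = 0.157 by edgeR), or by -0.44 ± 0.07 without M-Z- replicate 2 (adjusted p = 0.0142 by edgeR). In both sexes Igf2r differed by -0.48 ± 0.07 (adjusted p = 4.22e-05 by edgeR), just short of the minimum size, and by -0.55 ± 0.06 without that embryo (adjusted p = 2.3e-07 by edgeR), a call. Igf2, the imprinted fetal ligand, differed by -0.15 ± 0.05 in both sexes (adjusted p = 0.0718 by edgeR), and its exons overlap Igf2os.

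Among proteases and inhibitors of the binding proteins (7 of 8 tested), Stc2 was called higher in both sexes at 0.98 ± 0.23 (adjusted p = 0.00936 by edgeR). It was 4.66 to 6.33 CPM in female M+Z+ and 6.80 to 8.79 CPM in female M-Z- embryos, a female difference of 0.49 ± 0.12 (adjusted p = 0.0515 by edgeR). Without male M-Z- replicate 2 its value in both sexes was 0.50 ± 0.10 (adjusted p = 0.00249 by edgeR), just below the minimum size. With the replicate block it was 0.79 ± 0.25 (adjusted p = 0.0545 by edgeR), which ends the call. With no block the male difference was 1.60 ± 0.43 (adjusted p = 0.124 by edgeR), and 0.49 ± 0.18 with M-Z- replicate 2 left out (adjusted p = 0.33 by edgeR). Pappa2, a protease that cuts IGFBP3 and IGFBP5, was lower by 0.42 ± 0.09 and Adamts1 higher by 0.20 ± 0.04, both below the minimum size (adjusted p = 0.00466 and 0.00628 by edgeR).

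The signal list (52 of 53 tested) had 1 female call, Irs4, an X-linked docking protein, at 4.53 to 5.42 CPM in M+Z+ and 2.99 to 4.05 CPM in M-Z- females (-0.58 ± 0.13, adjusted p = 0.0336 by edgeR). It was called in 6 of the 13 fits that each left out 1 female, and the replicate block ended the call (adjusted p = 0.21 by edgeR). In males Irs4 differed by 0.05 ± 0.19 (adjusted p = 0.916 by edgeR) and in both sexes by -0.31 ± 0.12 (adjusted p = 0.105 by edgeR). With no minimum size, 5 genes of this list were higher and 1 lower in both sexes, where 5.43% and 4.26% of all genes were. Eif4ebp1, which encodes a repressor of translation that growth signals switch off, was higher by 0.35 ± 0.06 (adjusted p = 0.000821 by edgeR). Inppl1, a phosphatase that dampens PI3K signals, was higher by 0.27 ± 0.05 (adjusted p = 0.000971 by edgeR). Map2k1 (0.22) and Rps6kb2 (0.23), kinases of the growth pathways, were also higher, and Rps6kb2 did not pass without male M-Z- replicate 2 (0.16, adjusted p = 0.131 by edgeR). Grb10, the imprinted adaptor that inhibits both receptors, was lower by 0.39 ± 0.06 (adjusted p = 0.000377 by edgeR).

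The other lists had no call in any of these fits. Of the growth hormone list (7 of 10 tested) Jak2 was lower by 0.18 and Stat5b higher by 0.14 with an adjusted p below 0.05, and Stat5b did not pass without male M-Z- replicate 2 (adjusted p = 0.0917 by edgeR). Of the FoxO targets (12 of 14 tested) Fbxo32 was lower by 0.43 ± 0.09 (adjusted p = 0.00502 by edgeR). Of the Lin28 and let-7 list (12 of 12 tested, with Hmga2, Igf2bp1 and Igf2bp3 in it) 0 passed, and its median was 0.09 against -0.00 over all genes. Without male M-Z- replicate 2, Arid3a of this list passed in both sexes at 0.25 (adjusted p = 0.0334 by edgeR). So did Cited2 of the FoxO targets at 0.14 and Igfbpl1 of the carriers at -0.18 (adjusted p = 0.0458 and 0.0438 by edgeR), all below the minimum size.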

How the data were processed

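RNA of whole embryos was sequenced with a TruSeq RNA kit. Per the deposited tables and the study's methods, the authors trimmed reads, aligned unique reads to mm9 with STAR 2.7.8a and made raw counts per gene with featureCounts (Subread 2.0.1), set to be strand-specific and to count a read for each gene it overlaps. The kit is not known to mark strand, so a gene and an antisense partner cannot be told apart. The deposited allelic counts were made by splitting reads over strain variants. Among the female allelic columns, those of 4 M+Z+ embryos share column names and carry no replicate number here. Adjacent paternal and maternal columns were read as 1 embryo, and in 23 of 23 both matched the same gene column best.

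Genotypes were compared with edgeR 4.0.16 (quasi-likelihood test on raw counts, TMM scaling, filterByExpr, R 4.3.3) within each sex and in 1 fit of both sexes. The latter tested 17139 genes, and females and males alone 16871 and 16664. Allelic balance was tested on allele counts with embryo effects for autosomal genes at 20 or more reads per embryo on average (6468 female, 6423 male). The scripts were tested on simulated data. P-values measure the spread between these embryos, whose litters are not given in the labels. Alternatives were DESeq2 1.42.0, its size factors in edgeR, no filter, a replicate block, only the groups compared, no minimum size, a minimum of 50 reads, more than 30 reads for a P-score, and leaving out each embryo. The 4 unnumbered allelic embryos were not left out in turn. Besides the members, genes were named if they were called in 1 of the 6 pathway lists or were Igf2, Igf2r, Grb10 or Zfp57. Further genes (Hmga2, Slc2a1, Vegfa, Car9 and list genes below the minimum size) were chosen after their values were seen. One list gene below the minimum size is not reported here. The members and lists were chosen with earlier results of these data known.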

Additional observations from a re-analysis of the deposited data

Results flagged for a closer look

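Each group of 4 or 6 embryos was searched for an embryo far from the others, in 48 sets of CPM or P-scores of the members, where chance marks about 1 in 20. In female M+Z+ replicate 5 Igfbp4 was low at 457 CPM, with the other 5 embryos at 482 to 495 CPM. In female M-Z- replicate 1 Igfbp5 was low at 1241 CPM, with the other 3 at 1349 to 1363 CPM. Groups of 3, male M-Z- included, were not searched this way.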

How the results depend on the processing

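No called member reversed, since none was called. With no minimum size, 4 members (1661 of all genes) in both sexes M-Z- against M+Z+, 1 (273) in M-Z- against M-Z+ and 212 genes in female M-Z- against M+Z+ passed. DESeq2 called 147 genes in female M-Z- against M+Z+ (main 95), 50 against M-Z+ (33), and in males 185 (65), 57 (25) and, for M-Z+ against M+Z+, 13 (8). With no filter male M-Z- against M+Z+ had 99. With only the compared groups it had 40, male M-Z- against M-Z+ 16 and female M-Z+ against M+Z+ 3. The cause of these shifts was not tested.

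The replicate numbers did not pair the embryos: the deviations of same-numbered embryos correlated above 0.1 in 4 of 19 pairs (-0.36 to 0.51). With the replicate block, 2 members (Igfbp3 and Igfbp5, adjusted p = 0.0387 and 0.04 by edgeR) passed without a minimum size in both sexes M-Z- against M+Z+, and 0 against M-Z+. Genes called with the block were 52 and 4 for female M-Z- and M-Z+ against M+Z+, 128 and 41 for males, 116 for M-Z+ in both sexes, 54 for M-Z- against M-Z+ in both sexes and 7 between the sexes.

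With each embryo left out in turn, members called in male M-Z- against M+Z+ were 0 to 1 (Igfbp2, without M-Z- replicate 3), in male allelic balance 0 to 1 (Insr, without M+Z+ replicate 2) and in the male M-Z- allelic shift 0 to 1 (Igfbp2, without M-Z+ replicate 1). Members passing without a minimum size were 2 to 4 in both sexes M-Z- against M+Z+ and 0 to 1 against M-Z+. All genes called were 55 (without M-Z- replicate 2) to 116 in female M-Z- and 5 to 12 in female M-Z+ against M+Z+. They were 41 to 899 (without M-Z- replicate 3) in male M-Z- and 0 to 54 (without M+Z+ replicate 4) in male M-Z+ against M+Z+, and 17 to 376 in male M-Z- against M-Z+. In both sexes they were 9 to 37 in M-Z+ against M+Z+ and 60 to 167 in M-Z- against M-Z+. Of the gene counts, 0% (Irs1, Igfbp4), 0.117% (Igf1) and 0.269% (Igf2bp3) were allele-assigned, against 49.0% for Igfbp3, so the balance of these 4 could not be tested.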

Other observations

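Over all 23 embryos the summed levels were 913 to 1544 CPM for skeletal muscle, 1785 to 3085 CPM for cartilage and 1810 to 2449 CPM for neural markers. Trophoblast markers summed to 7.35 to 12.9 CPM, with 1 of 8 at 0 in each embryo. Male M-Z- replicate 2 had the lowest hepatoblast sum, 1707 CPM, and lay within the range of the other embryos for muscle (1146 CPM), cartilage (2548 CPM) and neural markers (1958 CPM).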
